A study of Mus musculus with 6 samples.

Results

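The class II antigen presentation genes described here are 7 of the 27179 genes in the deposited table: H2-Aa, H2-Ab1, H2-Eb1, H2-DMa, H2-DMb1, Cd74 and Ciita. They were taken by gene symbol, and all 7 were present and passed the filter on low values (3 or more libraries at a value of 10 or above). They were chosen by their normalized counts in this same contrast of genotypes, so their levels and differences are given as a description, with no test. Polyadenylated RNA had been sequenced from primary vascular smooth muscle cells of the mouse aorta. Of the 6 libraries, 3 were labelled Bmal1 KO and 3 WT. Bmal1, listed as Arntl, encodes the partner of CLOCK in the circadian transcription factor. Every culture of both genotypes had been in diabetic condition medium for 7 days, which the labels describe as growth medium to which hydrogen peroxide (0.3 mM) and glucose (4.5 g/L) had been added. The labels name no strain, sex, age, Cre driver or knockout allele, and do not say whether replicates came from separate animals or cultures, so a p-value here covers the spread of these samples alone, which could be technical. All libraries carried the same batch label.

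MHC class II molecules carry peptides from endosomes to the cell surface, where CD4 T cells read them. Each molecule pairs an alpha with a beta chain, and the invariant chain Cd74 fills the groove of the new pair until proteases trim it away. H2-DM, itself an alpha and beta pair, then frees the last fragment and lets peptides exchange, while H2-O restrains H2-DM. The genes share a promoter module of X and Y boxes bound by RFX, CREB and NF-Y factors, which recruit the coactivator CIITA. Dendritic cells, B cells and macrophages make class II molecules constitutively, and many other cells, smooth muscle among them, can do so after interferon-gamma.

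Recovered depth was 32503525 to 38074293 reads in the libraries labelled Bmal1 KO and 39129037 to 44657471 reads in the WT libraries. Values are normalized counts, that is reads divided by 1 size factor per library, and ± is the SD over 3 libraries. Smooth muscle markers were present, with Acta2, smooth muscle actin, at 62931 ± 1900.4 in the libraries labelled Bmal1 KO and 20688 ± 1364 in WT. Myh11, another smooth muscle marker, was low in WT, at 35.9 ± 28.3 on 119 reads. Under the Bmal1 KO label Myh11 was 274 ± 16.3. Bmal1 mRNA went against its label, at 1036, 941 and 1036 in the libraries labelled Bmal1 KO and 529, 619 and 590.4 in WT. A whole-gene count cannot show a deleted exon. Sex-linked RNA split the same way: Xist was 3867 ± 23.1 in the libraries labelled Bmal1 KO and 58.7 ± 40.8 in WT, and Ddx3y, on the Y chromosome, was 77.1 ± 7.53 under the Bmal1 KO label and 3109 ± 285 in WT. Genotype and the sex-linked split cannot be told apart here. Transcripts of the pancreas were also abundant and differed between the groups. Ins2, a preproinsulin gene, had 83540.4, 109927 and 153093 normalized counts under the Bmal1 KO label, against 20927, 6490.5 and 30456 in WT. A later paragraph sets these beside the class II genes.

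The classical chain genes and the invariant chain were higher in every library labelled Bmal1 KO than in any WT library. H2-Aa, the alpha chain of the A molecule (chromosome 17, 34282744 to 34287823 in mm10, minus strand), had 781, 886 and 1219 normalized counts under the Bmal1 KO label, against 139, 42.3 and 269 in WT. The groups did not overlap, and WT replicate 2 was the lowest of all. Their means were 962 ± 229 under the Bmal1 KO label and 150.2 ± 114 in WT (SD, n = 3 each), a 6.40-fold difference and a log2 difference of 3.00 on the log2(value + 1) scale.

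H2-Ab1, the beta chain that pairs with it (chromosome 17, 34263227 to 34269418, plus strand), had 1161, 1264 and 1727 normalized counts under the Bmal1 KO label, against 214, 74.6 and 316 in WT. The order of the libraries was that of H2-Aa, and the groups again lay apart. The means of 1384 ± 302 under the Bmal1 KO label and 201 ± 121 in WT differed 6.87-fold (log2 difference 2.98). These differences depended on the low WT library. Without WT replicate 2 the log2 difference of H2-Aa was 2.28 and that of H2-Ab1 2.39, and without WT replicate 3 that of H2-Aa was 3.600.

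H2-Eb1, the beta chain of the E molecule (chromosome 17, 34305867 to 34316674, plus strand), had 1002, 970.0 and 1477 normalized counts under the Bmal1 KO label, against 332, 138 and 419 in WT. The groups did not overlap, and WT replicate 2 was again the lowest. Its means were 1149.6 ± 284 under the Bmal1 KO label and 297 ± 144 in WT, 3.88-fold apart (log2 difference 2.07). The partner gene H2-Ea, annotated as a pseudogene in the C57BL/6J reference strain, had 2.04, 5.99 and 0 normalized counts under the Bmal1 KO label and 0.917, 0 and 0 in WT, too few to test.

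Cd74, the invariant chain and also a cell surface receptor for the cytokine MIF (chromosome 18, 60803849 to 60812652, plus strand), had 2554, 2792 and 3805 normalized counts under the Bmal1 KO label, against 643, 353 and 995 in WT. It ranked the libraries exactly as H2-Aa and H2-Ab1 did. The means of 3050.4 ± 664 under the Bmal1 KO label and 664 ± 321 in WT differed 4.60-fold (log2 difference 2.30).

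Ciita, the coactivator that the promoter-bound factors recruit (chromosome 16, 10480014 to 10531064, plus strand), was the scarcest of the 7, with 86.6, 49.2 and 99.4 normalized counts under the Bmal1 KO label and 16.5, 12.4 and 33.2 in WT. The groups lay apart by the gap between 49.2 in Bmal1 KO replicate 2 and 33.2 in WT replicate 3. The means of 78.4 ± 26.1 under the Bmal1 KO label and 20.7 ± 10.98 in WT differed 3.79-fold (log2 difference 1.93), resting on 213 reads in the libraries labelled Bmal1 KO and 69 in WT. Its 3′ end overlaps Dexi on the other strand, and the strand setting of the counting is not given in the sources used here, so reads of the shared 858 bases are uncertain.

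The peptide exchange genes did not follow the chains. H2-DMa (chromosome 17, 34119693 to 34139101, plus strand) had 199, 191 and 232 normalized counts under the Bmal1 KO label and 250.4, 217 and 228 in WT. The groups overlapped, with means of 207 ± 21.9 under the Bmal1 KO label and 232 ± 16.9 in WT (log2 difference -0.17). H2-DMb1 (chromosome 17, 34153191 to 34160229, plus strand) had 614, 622 and 626 normalized counts under the Bmal1 KO label, all below the 839, 794 and 711 in WT. Its means of 621 ± 5.89 under the Bmal1 KO label and 781 ± 65.0 in WT were 1.26-fold apart (log2 difference -0.33). Some reads of both genes could belong to other genes. H2-DMa shares 3122 bases of its span with Brd2 on the opposite strand, and 19.1% of the 75-base windows of the H2-DMb1 transcript also occur in its paralog H2-DMb2.

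**Figure D1:**
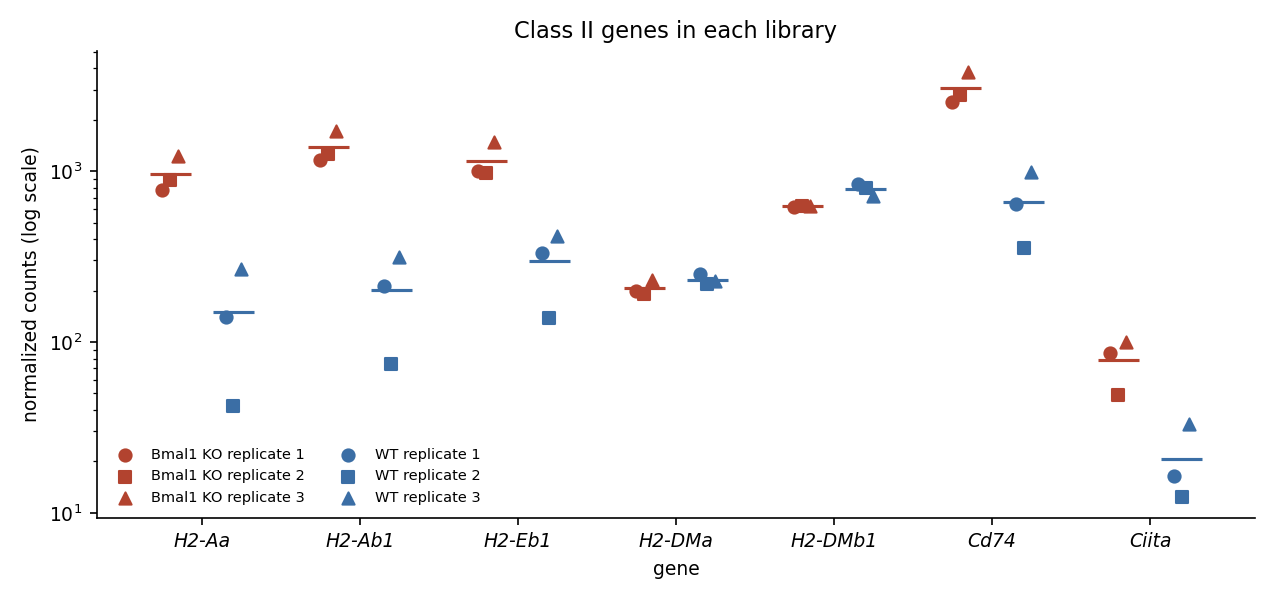
Normalized counts (log axis) of the 7 class II genes in each library, Bmal1 KO in red and WT in blue, with a symbol for each replicate number and a line at each group mean. H2-Aa, H2-Ab1, H2-Eb1, Cd74 and Ciita are higher in all 3 libraries labelled Bmal1 KO, while H2-DMa overlaps and H2-DMb1 is lower.

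Of the 16086 tested genes in the whole table, 71.1% passed the limma threshold (Benjamini-Hochberg adjusted p under 0.05), 36.2% higher and 34.9% lower under the Bmal1 KO label. In 76.7% the groups did not overlap, with the libraries labelled Bmal1 KO above WT in 38.5% and below in 38.2%. Of the 7 class II genes 5 were past the threshold as higher, 1 as lower and 1 not past, and the groups lay apart, above WT, in 5 and, below it, in 1. Since the contrast chose the genes, nothing is read from those counts.

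Per kilobase of exon, taken as the union of a gene's coding transcripts, the order of the levels also differed between the groups. The union was 1.669 kb for H2-Eb1, against 1171 bases for a single GENCODE M21 transcript. For H2-Aa the union was 1.128 kb and the single transcript 1128 bases. The place of H2-Eb1 relative to H2-Aa under the Bmal1 KO label therefore depends on the length used. In the libraries labelled Bmal1 KO, Cd74 led with 2154 normalized counts per kb, followed by H2-Ab1 at 1142, H2-Aa at 853, H2-Eb1 at 689, H2-DMb1 at 442, H2-DMa at 77.6 and Ciita at 9.53. In WT, H2-DMb1 led with 556 normalized counts per kb, then Cd74 at 469, H2-Eb1 at 178, H2-Ab1 at 166, H2-Aa at 133, H2-DMa at 87.0 and Ciita at 2.52. Under the Bmal1 KO label H2-Ab1 ran from 958 to 1425 normalized counts per kb, H2-Aa from 692 to 1081 and H2-Eb1 from 581 to 885. The range of H2-Aa over the libraries overlapped those of the other chains. Within every library labelled Bmal1 KO, however, the order by the union was H2-Ab1, then H2-Aa, then H2-Eb1. In WT the spread over libraries was wide for the 3 chain genes (SDs of 86.0 for H2-Eb1, 99.9 for H2-Ab1 and 101 for H2-Aa). Within every WT library H2-Aa was the lowest of the 3 by the union. H2-Eb1 was above H2-Ab1 except in WT replicate 3, and H2-DMb1 was above Cd74 except in that same library.

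The summed normalized counts of the 7 genes came to 6396, 6774 and 9186 in the libraries labelled Bmal1 KO, against 2434, 1632 and 2971 in WT, 3.18-fold apart in the mean. The make-up of this sum differed too. Cd74 held 40.9 ± 0.815% of it in the libraries labelled Bmal1 KO and 27.2 ± 5.95% in WT, and H2-Ab1 held 18.5 ± 0.345% under the Bmal1 KO label and 7.99 ± 3.10% in WT. H2-DMb1 held 8.54 ± 1.505% in the libraries labelled Bmal1 KO and 35.7 ± 12.4% in WT, with 34.5% in WT replicate 1 and 48.6% in WT replicate 2, the largest share of the 7 genes in both. Cd74 held the largest share in WT replicate 3, at 33.5%.

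**Figure D2:**
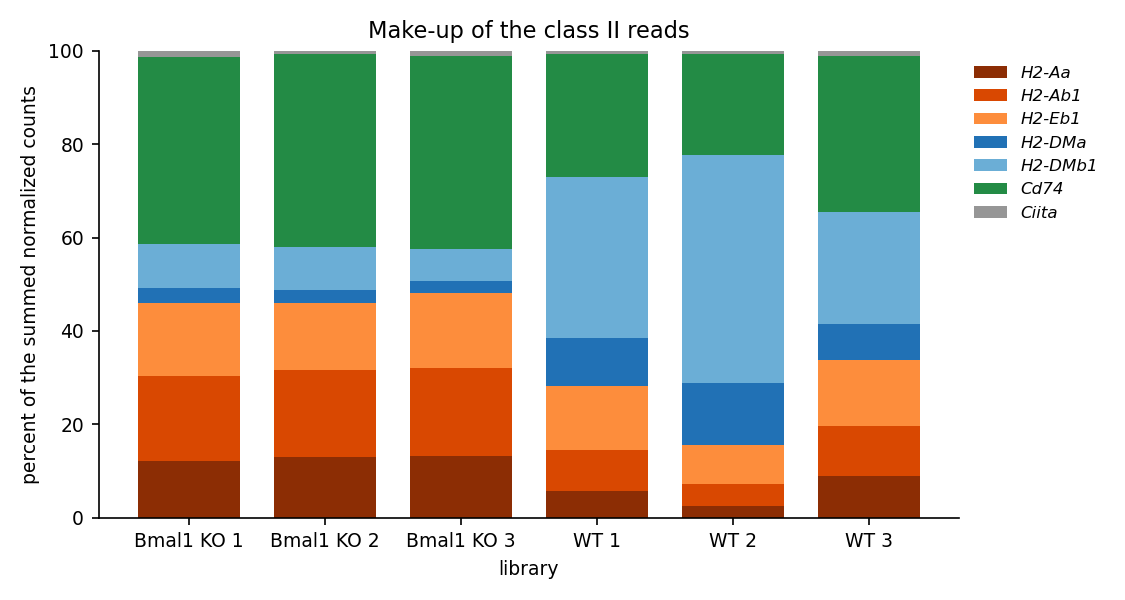
Percent of the summed normalized counts of the 7 genes held by each, stacked, in each library. The 3 libraries labelled Bmal1 KO look alike, with Cd74 at 40.9% on average, while H2-DMb1 takes 23.9% to 48.6% of the WT libraries.

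Ratios within a library do not depend on its scaling. H2-Aa per 100 H2-Ab1, the alpha and beta chains of one molecule, was 67.3, 70.1 and 70.6 in the libraries labelled Bmal1 KO and 65.2, 56.7 and 85.1 in WT, with means of 69.3 under the Bmal1 KO label and 69.0 in WT. The WT values lay on both sides of the others. H2-Eb1 per 100 H2-Ab1 was 86.3, 76.8 and 85.5 in the libraries labelled Bmal1 KO, against 155, 186 and 133 in WT, with no overlap. The H2-DM pair per 100 of the 3 chain genes was 27.6, 26.1 and 19.4 in the libraries labelled Bmal1 KO, against 159, 396 and 93.6 in WT. Within the pair, H2-DMa per 100 H2-DMb1 overlapped between the groups, at 32.3, 30.6 and 37.0 in the libraries labelled Bmal1 KO and 29.8, 27.4 and 32.1 in WT. Ciita per 100 Cd74 overlapped as well, with means of 2.59 ± 0.816 in the libraries labelled Bmal1 KO and 3.14 ± 0.505 in WT.

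The spread among the WT libraries was wide for the 5 genes that were higher under the Bmal1 KO label. The highest library over the lowest was 1.56 in the libraries labelled Bmal1 KO and 6.36 in WT for H2-Aa. The same ratios were 1.49 under the Bmal1 KO label and 4.23 in WT for H2-Ab1, 1.52 under the Bmal1 KO label and 3.03 in WT for H2-Eb1, 1.49 under the Bmal1 KO label and 2.82 in WT for Cd74, and 2.02 under the Bmal1 KO label and 2.67 in WT for Ciita. The median over all tested genes, with 1 added to each value, was 1.14 in the libraries labelled Bmal1 KO and 1.24 in WT. Only 1.18% of tested genes spread as widely in WT as H2-Aa, and 6.99% as widely as Cd74, measured the same way. H2-DMa and H2-DMb1 had WT ratios of 1.15 and 1.18.

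The 5 genes moved together in WT: each was highest in replicate 3, next in replicate 1 and lowest in replicate 2, an order held by 13.3% of tested genes. H2-Aa, H2-Ab1 and Cd74 shared the order of all 6 libraries, Bmal1 KO replicates 3, 2 and 1 and then WT replicates 3, 1 and 2, with 414 tested genes in all, or 2.57%. H2-Eb1 and Ciita differed from this by the exchange of Bmal1 KO replicates 1 and 2.

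The genes most like the summed class II genes were ranked by Pearson r of log2(value + 1) less the group mean, over the 6 libraries and 12849 genes with a mean of at least 50. All genes share the same 6 libraries, and the r values are a description. The first 8 were Prss3, a trypsin (r = 0.997), the zinc finger gene Zbtb1 (0.994), the Notch target Hey1 (0.991), the antisense RNA Tomm6os (0.9897), Kcnk16, a potassium channel of pancreatic islets (0.988), the amino acid transporter Slc7a8 (0.988), Cela3b, a pancreatic elastase (0.988), and the semaphorin receptor Plxna4 (0.987). The members themselves reached 0.979 for Cd74, 0.971 for H2-Eb1, 0.955 for H2-Ab1, 0.946 for H2-Aa, 0.781 for Ciita and 0.665 for H2-DMa, while H2-DMb1 had -0.37. Each member is part of the sum it was compared with, so these values cannot be set against those of the other genes.

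Because pancreatic genes appeared in that ranking, 16 pancreatic enzyme and 6 islet hormone genes were then examined, a list chosen after the values were seen. They summed to 392514, 526669 and 767452 normalized counts under the Bmal1 KO label, against 77558, 24396 and 106944 in WT, or 1.012, 1.35 and 1.99% under the Bmal1 KO label and 0.207, 0.0659 and 0.297% in WT of all normalized counts. Of the 22 genes, 21 were higher in every library labelled Bmal1 KO than in any WT library and 20 had the library order of H2-Aa and H2-Ab1. The 2 that did not, Cela3a and Prss1, each had a library at 0. Over all tested genes, 38.5% were higher in every library labelled Bmal1 KO and 2.57% had this order. Prss3 and Cela3b are among the 22 and had been picked by their likeness to the class II sum. Trypsinogen gene Prss2 had 19472, 26793 and 41302 in the libraries labelled Bmal1 KO and 3209, 1005 and 4263 in WT, and glucagon gene Gcg had 13978, 16546 and 22106 under the Bmal1 KO label and 3387, 969 and 4726 in WT.

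Per 10000 normalized counts of the pancreatic genes, H2-Ab1 had 29.6, 24.0 and 22.5 in the libraries labelled Bmal1 KO and 27.6, 30.6 and 29.5 in WT, and H2-Aa had 19.9, 16.8 and 15.9 under the Bmal1 KO label and 18.0, 17.3 and 25.1 in WT. On this scale the A chains overlapped between the groups, and the ratio of the means was 0.868 for H2-Ab1 and 0.870 for H2-Aa. It was 0.523 for Cd74, 0.455 for H2-Eb1, 0.429 for Ciita, 0.0820 for H2-DMa and 0.0713 for H2-DMb1. Ratios near those of the A chains were not particular to class II genes. The ratio was 1.04 for the macrophage marker C1qc, 0.957 for the endothelial marker Pecam1 and 0.992 for the smooth muscle marker Myh11. Other markers were far from these, with 0.0953 for the leukocyte marker Cd53 and 0.0128 for the macrophage marker Cd14. The choice of pancreatic genes shifted these ratios, since the enzyme sum over the hormone sum was itself 1.64, 1.76 and 1.89 in the libraries labelled Bmal1 KO and 1.11, 1.19 and 1.02 in WT. Against the hormone genes alone the ratio for H2-Ab1 was 1.13, and against the enzyme genes alone 0.716. The part of pancreatic RNA in the class II levels was not tested.

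**Figure D3:**
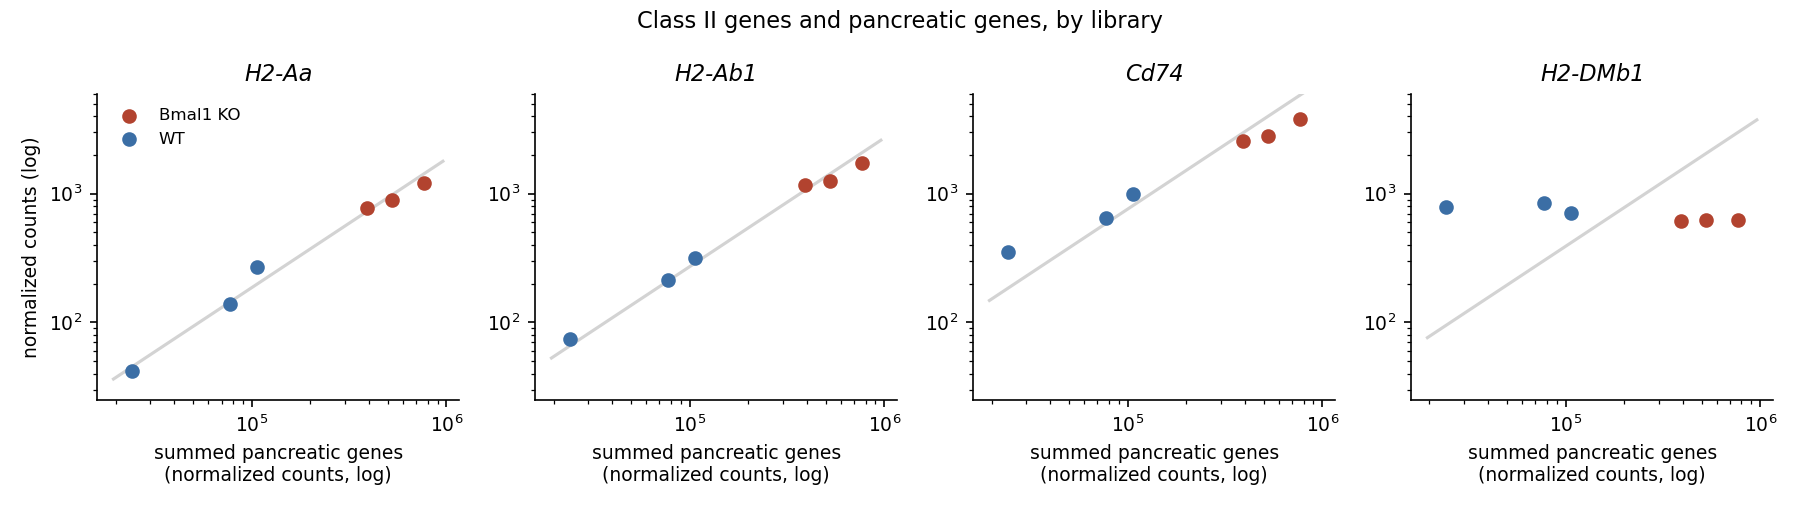
Normalized counts of H2-Aa, H2-Ab1, Cd74 and H2-DMb1 against the summed normalized counts of 22 pancreatic genes in each library, on log axes, with Bmal1 KO in red and WT in blue. The grey line has a fixed ratio to the sum, at the geometric mean over the 6 libraries; H2-Aa and H2-Ab1 lie along it in both groups, Cd74 is flatter and H2-DMb1 does not follow it.

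Markers of cells that make class II molecules constitutively also differed. The marker counts below stand beside 36.2% higher and 34.9% lower over all tested genes. In bulk RNA, fewer cells of a type and less RNA per cell cannot be told apart. Of 5 markers of all leukocytes 4 were higher under the Bmal1 KO label. The summed level of the 5 was 2138, 1704 and 2104 in those libraries and 1074, 719 and 1138 in WT. Of that sum, Cd53, which did not pass, made up 662 ± 79.1 under the Bmal1 KO label and 677 ± 66.0 in WT. Ptprc, which encodes CD45, had 204, 112 and 149.6 in the libraries labelled Bmal1 KO and 31.2, 7.46 and 55.3 in WT, with WT replicate 2 again the lowest. Of 13 tested macrophage markers of 14 listed, 10 were higher and 2, Cd68 and Cd14, were lower. C1qa, a complement subunit of tissue macrophages, had 116, 185 and 336 in the libraries labelled Bmal1 KO and 25.7, 15.8 and 62.6 in WT, in the order of the H2-Aa libraries. The summed macrophage level was 2423, 2701 and 3236 in the libraries labelled Bmal1 KO and 4207, 3626 and 3811 in WT. Of the sum, Cd14 made up 404 ± 24.1 under the Bmal1 KO label and 2886 ± 307 in WT.

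Of 5 B cell markers 3 were higher, and the sum was 1193, 281 and 388 in the libraries labelled Bmal1 KO and 218, 57.2 and 140.0 in WT. Bmal1 KO replicate 1, the highest for B cell markers, was not the highest for any of the 7 class II genes. It was the highest for H2-Ob, a class II gene outside the 7, at 60.1, against 16.8 and 38.8 in Bmal1 KO replicates 2 and 3. Of 6 tested dendritic cell markers of 8 listed, 4 were higher and 1 was lower. The sums of the list were 378, 287 and 378 in the libraries labelled Bmal1 KO and 282, 232 and 302 in WT. Zbtb46, which did not pass, and Batf3, which was lower, made up 174 ± 35.2 and 68.4 ± 26.6 of the WT sum. Under the Bmal1 KO label these 2 genes had 122 ± 21.1 and 23.8 ± 6.80. All 5 T cell markers were higher (137, 132 and 217 summed under the Bmal1 KO label and 43.1, 6.63 and 41.4 in WT), as were 5 of 6 endothelial markers, with sums of 793, 757 and 977 under the Bmal1 KO label and 330.2, 326 and 441 in WT. WT libraries at 0 were met for 2 macrophage, 3 dendritic cell, 1 B cell and 2 T cell markers (Fcgr1, Tyrobp, Xcr1, Clec9a, Cd209a, Ms4a1, Cd3d and Cd8a), while no library labelled Bmal1 KO was at 0 for any marker of these lists. Of the markers that were higher, 2 of leukocytes, 7 of macrophages, 4 of dendritic cells, 5 of T cells and 3 of endothelium had fewer than 3 WT libraries at the filter value of 10, so they entered the test through the libraries labelled Bmal1 KO. The part of these cells in the class II levels was not tested.

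All 7 smooth muscle markers were higher under the Bmal1 KO label as well, with sums of 108298, 99989.5 and 104637 in those libraries and 32722, 31826 and 28598 in WT. The WT order of the sum was not that of the class II genes, since WT replicate 3 had the lowest sum. Acta2, the largest part of the sum, was also lowest there among the WT libraries, at 19120.5. Myh11 differed from the sum and had the library order of H2-Aa. Its values were 259, 272 and 291 under the Bmal1 KO label and 24.8, 14.9 and 68.2 in WT. Of 5 fibroblast markers 2 were higher and 3 lower. Dcn, among the lower, had 2403 ± 77.2 under the Bmal1 KO label and 26320 ± 1947 in WT. Pdgfra, among the higher, had 12442 ± 547 under the Bmal1 KO label and 10681 ± 916 in WT.

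**Figure D4:**
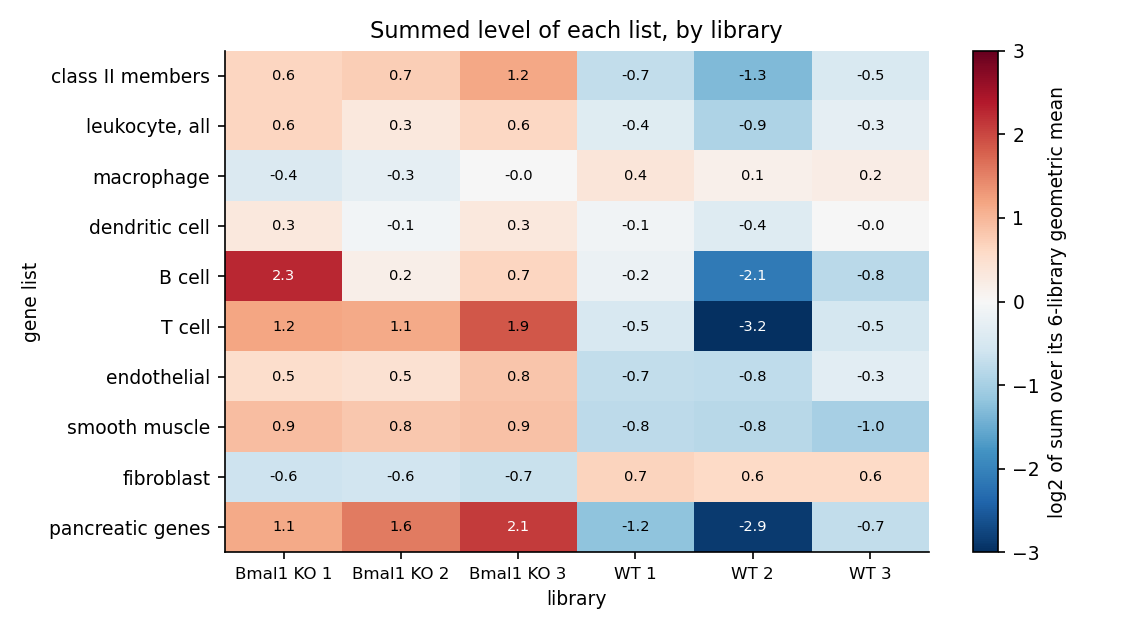
Summed normalized counts of each gene list in each library as log2 over the list's geometric mean of the 6 libraries, red above and blue below it. The class II, leukocyte, dendritic cell, B cell, T cell, endothelial and pancreatic rows are lowest in WT replicate 2 (class II sum 1632, pancreatic sum 24396). The smooth muscle row is alike in the 3 WT libraries.

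Class II genes outside the 7 were few and low. H2-DMb2, the paralog of H2-DMb1, had 61.1, 46.8 and 69.7 normalized counts under the Bmal1 KO label and 4.59, 3.32 and 16.6 in WT and rose 7.25-fold (log2 difference 2.98, SE 0.54, limma with Benjamini-Hochberg adjusted p = 0.00146). Only 1 WT library reached the filter value of 10, so it entered the test through the libraries labelled Bmal1 KO, and without WT replicate 3 the log2 difference was 3.597. It went the other way from H2-DMb1. H2-Oa, the alpha chain of H2-O, had 21.4, 26.4 and 29.7 in the libraries labelled Bmal1 KO and 8.25, 4.15 and 9.21 in WT and rose 3.59-fold (limma adjusted p = 0.00427), with no WT library at 10. H2-Ob, its beta chain, had 60.1, 16.8 and 38.8 in the libraries labelled Bmal1 KO and 14.7, 1.66 and 17.5 in WT (limma adjusted p = 0.0583), which passed under 7 of the alternatives run. H2-Eb2, with 7.13, 10.8 and 11.4 in the libraries labelled Bmal1 KO and 3.67, 0 and 5.53 in WT, was not tested. Per 10000 pancreatic counts the ratio of the group means was 0.958 for H2-DMb2, 0.395 for H2-Oa and 0.560 for H2-Ob.

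The gene neighbourhoods were mixed. Between H2-Oa and H2-Eb2 on chromosome 17, 8 genes beside the 5 described above were tested, of which 2 rose (H2-Oa and H2-DMb2), 4 fell and 2 did not pass, against 36.2% higher and 34.9% lower over all tested genes. Both that rose had entered the test through the libraries labelled Bmal1 KO, so nothing is read from their count. Those that fell were the class I peptide transporter genes Tap1 (1.29-fold) and Tap2 (1.42-fold), the immunoproteasome gene Psmb8 (1.61-fold) and Brd2 (1.20-fold). Brd2 lies next after H2-Oa and overlaps H2-DMa by 3122 bases. The other 3 lie between H2-DMb1 and H2-Ob, so genes that were higher and lower under the Bmal1 KO label alternated along the region. Within 100 kb of Cd74, the ribosomal protein gene Rps14 fell 3.41-fold, Tcof1 1.90-fold and Arsi 2.81-fold, and Ndst1 did not pass. Within 100 kb of Ciita, Clec16a rose 2.51-fold, Dexi 1.46-fold and Tvp23a 1.31-fold, the last lost under 7 alternatives, and Nubp1 did not pass.

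**Figure D5:**
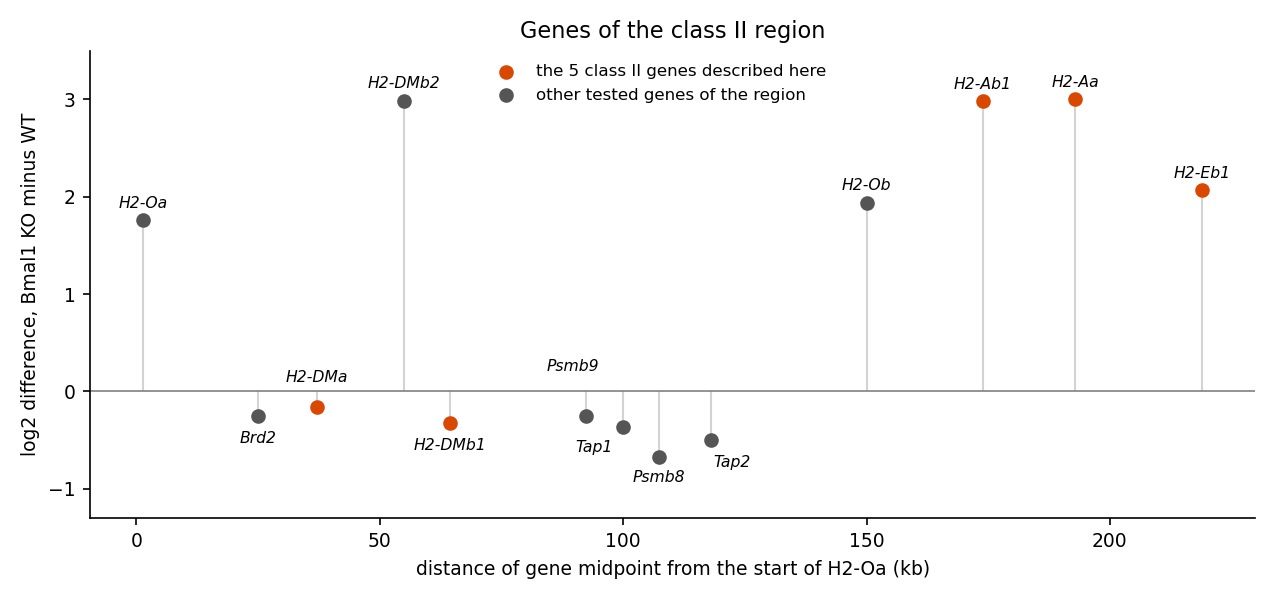
Log2 difference, Bmal1 KO minus WT, of the tested genes between H2-Oa and H2-Eb2, placed by the distance of their midpoints from the start of H2-Oa in kb. H2-Ab1, H2-Aa and H2-Eb1 stand at 2.07 to 3.00, next to Tap1, Psmb8 and Tap2 below 0; H2-DMa and H2-DMb1 are below 0 beside H2-DMb2 at 2.98.

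Promoter sequence was set beside these differences because chain and H2-DM genes share the same regulatory module. RefSeq promoters of build GRCm38.p6, 250 bases before to 50 after the start site, were matched for 4 of the 7 genes (H2-Aa, H2-Eb1, H2-DMa with 2 start sites and H2-DMb1) and for H2-DMb2, H2-Oa, H2-Ob and H2-Eb2. H2-Ab1, Cd74 and Ciita had no entry. The motifs searched on both strands were the X box core ACNGATG, present in 9.85% of 32851 promoters, and the Y box core GATTGG, bound by NF-Y and present in 16.1%. The stretches below are written 5′ to 3′ on the gene's strand, with a Y box core, and an X box core that precedes it by 10 to 30 bases, in capitals.

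H2-Aa (chr17:34287859-34287911, minus strand): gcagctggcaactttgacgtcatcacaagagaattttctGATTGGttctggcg
H2-Eb1 (chr17:34305767-34305820, plus strand): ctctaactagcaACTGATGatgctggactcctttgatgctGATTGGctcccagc
H2-DMb1 (chr17:34153088-34153142, plus strand): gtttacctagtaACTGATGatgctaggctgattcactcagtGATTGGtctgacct
H2-DMb2 (chr17:34145117-34145171, plus strand): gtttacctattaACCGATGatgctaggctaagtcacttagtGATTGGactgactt
H2-Oa (chr17:34092296-34092348, plus strand): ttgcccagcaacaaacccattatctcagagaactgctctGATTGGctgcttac

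An X box core followed by a Y box core on one strand, with 10 to 30 bases between their starts, stood in 20 promoters (0.0609%) of 19 genes. Of these, 4 were class II genes: H2-Eb1 and H2-Eb2 with 28 bases between the starts, and H2-DMb1 and H2-DMb2 with 29. H2-Eb1 and H2-DMb1 thus carried the same spaced pair of cores, at 88 and 91 bases before the start site for X, while the libraries labelled Bmal1 KO were 3.88-fold higher for H2-Eb1 and 1.26-fold lower for H2-DMb1. H2-DMb1 and H2-DMb2 had matching spacing too, and H2-DMb2 was higher, not lower. H2-Aa and H2-Oa had the Y box core at 49 and 44 bases before the start and an X box core elsewhere. The E-box CACGTG, which CLOCK and BMAL1 bind, was in none of these 9 promoter windows and in 7.15% of all promoters. A match or its absence describes these letters in this window only.

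The factors that bind the module did not rise. Of 7 tested, 0 rose and 4 fell by limma (0 rose at an unadjusted p under 0.05 too, or by edgeR, DESeq2 or voom): Rfx5 was 1.48-fold lower (adjusted p = 0.0284), Rfxank 1.60-fold, Nfyb 1.69-fold and Creb1 1.35-fold. The Rfx5 call was lost without Bmal1 KO replicate 1 or 2 or WT replicate 2 or 3 (adjusted p of 0.0744 to 0.0930). Rfxap averaged 526 ± 53.2 normalized counts under the Bmal1 KO label and 576 ± 38.2 in WT, Nfya 1687 ± 38.9 under the Bmal1 KO label and 1648 ± 149 in WT, and Nfyc 487 ± 5.18 under the Bmal1 KO label and 522 ± 15.5 in WT, and none of the 3 passed. The list's median log2 difference was -0.43, against -0.012 over all tested genes, of which 36.2% were higher and 34.9% lower.

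Of 9 genes of the interferon-gamma route to Ciita 3 were higher and 5 lower, beside 36.2% and 34.9% over all tested genes. The kinase gene Jak1 rose 2.73-fold, with 15587 ± 367 normalized counts under the Bmal1 KO label and 5705 ± 383 in WT, and the receptor gene Ifngr2 rose 1.30-fold. The other kinase gene of the receptor, Jak2, fell 2.97-fold, with 2607 ± 59.7 in the libraries labelled Bmal1 KO and 7744 ± 190.2 in WT. Irf1, which acts on the interferon-responsive Ciita promoter, fell 2.34-fold, and the receptor gene Ifngr1 fell 1.83-fold. Socs1, a feedback inhibitor, was lower by a log2 difference of -0.32 (limma adjusted p = 0.0414), a call lost under 10 alternatives, each left-out library among them. Genes that interferon-gamma induces were 5 of 10 higher and 2 lower: the GTPase genes Gbp2 and Irgm1 rose 2.61-fold and 2.30-fold, while the chemokine gene Cxcl10 fell 4.10-fold and Iigp1 1.97-fold. The rise of Cxcl9, the fifth of them, was lost without Bmal1 KO replicate 2 or 3 (limma adjusted p of 0.0656 and 0.0774), and its log2 difference of 2.49 was 1.51 without WT replicate 2 and 3.36 without WT replicate 3.

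Of 12 processing and turnover genes 5 were higher, 5 lower and 2 not past, beside 36.2% higher and 34.9% lower over all tested genes. The rise of 1 of the 5, Marchf8, was lost under 8 alternatives. Cathepsin S, which makes the last cuts of the invariant chain in professional antigen presenting cells, was read from Ctss at 164, 209.8 and 256 in the libraries labelled Bmal1 KO and 43.1, 7.46 and 60.8 in WT, 5.66-fold higher (limma adjusted p = 0.00556). Its library order was that of H2-Aa, and per 10000 pancreatic counts its group ratio was 0.804. Its log2 difference of 2.87 was 1.99 without WT replicate 2. Sppl2a, the protease that clears the Cd74 stub from the membrane, rose 1.94-fold, and the aminopeptidase gene Ctsh 1.69-fold. The endosomal proteases Lgmn and Ctsb fell 2.99-fold and 1.60-fold.

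Of 5 tested ligand and partner genes of Cd74 the ligand Mif fell most, 7.92-fold, with 2784, 2535 and 2784 in the libraries labelled Bmal1 KO and 25500.1, 20636 and 18058 in WT, and its homologue Ddt fell 2.08-fold. The coreceptor gene Cd44 rose 2.57-fold and the chemokine receptor Ackr3 fell 2.98-fold. Cxcr4 had 195, 59.9 and 45.7 in the libraries labelled Bmal1 KO and 26.6, 3.32 and 22.1 in WT (limma adjusted p = 0.0204), a call lost without Bmal1 KO replicate 1 (adjusted p = 0.0686), and its log2 difference of 2.55 was 1.70 without WT replicate 2. Cd74 was thus higher in libraries in which both of its ligand genes were lower.

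Of 7 tested costimulation and checkpoint genes 3 were higher and 2 lower, beside 36.2% and 34.9% over all tested genes. Cd86 had 10.2, 16.8 and 16.0 in the libraries labelled Bmal1 KO and 1.83, 1.66 and 2.76 in WT, Cd40 had 18.3, 29.97 and 28.6 under the Bmal1 KO label and 3.67, 1.66 and 10.1 in WT, and Cd80 rose 1.28-fold. Cd86 and Cd40, like Ctss, Cxcr4 and Cxcl9 above, had fewer than 3 WT libraries at the filter value of 10 and entered the test through the libraries labelled Bmal1 KO. Tnfsf9 fell 7.11-fold and the adhesion gene Icam1 3.80-fold. The class I genes, set beside these as the other presentation pathway, were 3 of 11 higher and 5 lower, beside 36.2% and 34.9% over all tested genes. H2-K1 fell 1.61-fold while H2-D1 rose 1.23-fold, and Nlrc5, the class I counterpart of Ciita, averaged 246 ± 27.7 in the libraries labelled Bmal1 KO and 269 ± 59.2 in WT and did not pass. Over the 8 lists, 23 of the 64 tested genes were higher and 26 lower, beside 36.2% and 34.9% over all tested genes.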

How the data were processed

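Per the labels' protocols, an Illumina kit for stranded mRNA was used on 1.0 µg of RNA. The submitters' processing notes list Trimmomatic, HISAT2, featureCounts and mm10 with no version or role; annotation and strand setting: not given in the sources used here. The deposited table gives a signal per gene and library in the form of normalized counts. Dividing each column by its smallest step returned whole reads for 100% of values within 0.01. All 6 value columns were mapped by title, and 0 columns stayed unmapped.

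Tests used limma 3.58.1 in R 4.3.3 on log2(value + 1), with eBayes using a trend and group as the only term, over the 16086 genes that reached 10 in 3 or more libraries, and Benjamini-Hochberg adjusted p-values with a threshold of 0.05. Differences are Bmal1 KO minus WT, and folds are ratios of mean normalized counts. The 1 added to each value shrinks the log2 differences of low genes. A log2 difference compares means of logs and need not equal the log2 of the fold. For Cxcl9, with a wide WT spread, it was 2.49 beside a fold of 3.75, and so larger than that fold gives. The fit was tested on simulated data. Alternatives were TMM, upper-quartile and library-total scaling, no filter and a filter of 50, pseudocounts of 0.5 and 5, leaving out each library, a block for replicate number, and edgeR 4.0.16, DESeq2 1.42.0 and voom on recovered reads. No pair of replicates agreed within sampling noise. Lengths are the union of exons of a gene's coding transcripts in GENCODE M21. GENCODE M21 transcripts were also used for the 75-base windows. Coordinates come from a RefSeq table of GRCm38.p6, the build of the files.

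The 7 genes, the lists and the rule for named genes were chosen with earlier results of these data known. That rule named all 7, every gene of lists of up to 7 genes, the called genes of longer lists with the smallest adjusted p, neighbours and the 8 genes most alike; a few of its genes are given by count only, and 1 is not reported here. The pancreatic list was added after the values were seen.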

Additional observations from a re-analysis of the deposited data

How the results depend on the processing

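The log2 differences of the 7 genes kept their sign under every alternative that gave them a value; Ciita did not pass the filter of 50. They ranged from 2.28 to 3.600 for H2-Aa, 2.39 to 3.42 for H2-Ab1, 1.59 to 2.39 for H2-Eb1, 1.91 to 2.65 for Cd74, 1.64 to 2.31 for Ciita, -0.25 to -0.11 for H2-DMa and -0.40 to -0.27 for H2-DMb1. The fold of the summed genes was 2.76 to 3.67 with 1 library left out and 3.01 to 3.29 under other scalings. Of the companion genes, 18 to 24 were called higher and 24 to 27 lower. Scaling moved the median difference of all genes by -0.075 to 0.053.

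The sign turned, with neither value past the threshold, for Nfya under TMM (-0.0227) and library-total scaling (-0.0358), for Gbp3 under TMM (-0.0598), library-total scaling (-0.0729), edgeR (-0.0248) and voom (-0.0346), and for Ndst1 under upper-quartile scaling (0.0083). With 1 library left out, the log2 difference ran from -0.0382 to 0.0873 for Nfya, -0.298 to 0.0256 for Nlrc5, -0.106 to 0.0869 for Gbp3 and -0.265 to 0.117 for Ndst1, whose fall was called without WT replicate 1. The cause was not tested. Replicate numbers did not pair the libraries (correlations of same-numbered libraries -0.0045, 0.026 and 0.084), and with the replicate number as a block 5869 genes were called higher and 5687 lower, against 5816 and 5619 without it. Under the block H2-Ob was called and Socs1 was not; the Socs1 call was lost under 9 other alternatives too. Ciita, H2-Oa and the untested class II genes were limited by depth.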
